A study of Rattus norvegicus with 6 samples.

Results

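Il6, Csf3, Il1b, Il1a and Tnf encode 5 secreted inflammatory cytokines. They were picked by gene identifier from an array of 20174 features, each with 1 spot. Of the 6 identifiers searched, 5 were used, 1 for each gene. Tnf was read from its older identifier, ENSRNOG00000000837, and its newer one was not used here. The others were ENSRNOG00000010278 for Il6, ENSRNOG00000008525 for Csf3, ENSRNOG00000004649 for Il1b and ENSRNOG00000004575 for Il1a. These pairs of name and identifier come from the selection itself, since no name stands beside an identifier on the arrays. Il6 and Csf3 were taken up because their signals were known to be low after treatment with VCAM1 shRNA, and the other 3 because they act upstream of them. The comparison between groups therefore describes these genes, and no test of it is given for any of them.

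The cells were oligodendrocyte precursor cells from the brains of Sprague-Dawley rat embryos at embryonic day 15. All cultures were treated with a short hairpin RNA for 20 hours. Control cells received a hairpin against luciferase, an insect enzyme without a rat counterpart, and the other cells received one against VCAM1, a cell-adhesion molecule. Each group had 3 arrays, numbered from 1 to 3 by the labels, which do not say whether the numbers stand for separate cultures. The study's methods speak of pools of labelled RNA, without saying whether cultures were pooled. The spread between arrays may therefore be technical. The study describes cells dissociated from cerebral cortex, passaged in serum and then kept in serum-free medium with PDGF and FGF, and retroviral hairpin vectors, which enter dividing cells. Its text names VCAM1#1 as the hairpin of the later experiments, and the labels of the arrays name none. No feature could be tied by name to Vcam1 or to markers of any cell type. The knockdown and the purity of the cultures were thus not analysed here, and the treated arrays are called VCAM1 shRNA arrays after their label alone. In RNA from whole cultures, fewer cells of one type and less RNA per cell cannot be told apart.

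Il1a, Il1b and Tnf are early cytokines of inflammation. Il1a and Il1b signal through the same receptor, and Tnf through receptors of its own. Both routes activate NF-kB and AP-1 transcription factors, which induce further cytokines, among them Il6 and Csf3. Il6 acts through a receptor that recruits the shared signalling chain Il6st and the factor Stat3, and Csf3 (granulocyte colony-stimulating factor) drives the formation of neutrophils. In the brain, microglia and astrocytes are well-known sources of these cytokines, and Tnf and Il1b are known to induce VCAM1 on endothelial cells.

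The sequence before the start of each gene was read from RefSeq (build GRCr8), which held an entry for 4 of the 5 genes, all but Csf3. The 250 bases before the start of Il6 and of Tnf are shown 5′ to 3′, because these are the genes with the largest and the smallest difference between the groups. Capitals mark matches to any of the motifs searched on both strands, which were TTGCNNAA for C/EBP, TGANTCA for AP-1, TGACGTCA for CRE and 2 forms of the NF-kB motif. The loose NF-kB form is GGG and CC with any 5 bases between them, and the strict form, which lies within the loose one, fixes all but 1 of those 5 bases.
Il6, chr4:5894576-5894825, minus strand: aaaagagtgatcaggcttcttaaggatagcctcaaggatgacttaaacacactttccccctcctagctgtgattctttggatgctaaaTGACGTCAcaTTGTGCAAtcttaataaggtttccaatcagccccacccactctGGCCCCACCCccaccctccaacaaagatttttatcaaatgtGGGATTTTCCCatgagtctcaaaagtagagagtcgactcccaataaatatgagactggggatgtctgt
Tnf, chr20:3626435-3626684, plus strand: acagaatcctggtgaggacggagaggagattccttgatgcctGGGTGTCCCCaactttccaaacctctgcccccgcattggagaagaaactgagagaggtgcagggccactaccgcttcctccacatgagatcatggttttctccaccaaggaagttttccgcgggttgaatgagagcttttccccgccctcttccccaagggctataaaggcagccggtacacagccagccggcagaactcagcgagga

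The Il6 window held the strict NF-kB motif from 68 to 59 bases before the start, in the last run of capitals. Of 33469 promoter windows of the same length, 0.314% held that motif. The same window held the CRE motif from 162 to 155 bases before the start (1.59% of all windows) and, a few bases on, the C/EBP motif on the other strand (9.22%). The loose NF-kB motif was in the Il6 and the Tnf windows and in 42.3% of all windows. In the Il1a window the only match was AP-1, as TGACTCA from 12 to 6 bases before the start (6.34% of all windows). The Il1b window held none of these letter patterns. These matches describe the letters of the windows and show no binding. In the same RefSeq table Il1a and Il1b are direct neighbours among protein-coding genes on chromosome 3, and Tnf lies between Lta and Ltb on chromosome 20.

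All 5 cytokines were detected on every array. Signals are given after subtraction of the blank spots and scaling of each array, so that the median over its detected features is 25. Between 72.9% and 84.6% of features were detected per array. The number of arrays limits the precision. Detection on 3 or more arrays left 16141 features for a limma fit, in which 0 (0%) passed 0.05 after Benjamini-Hochberg adjustment and 286 did so without adjustment. The methods' t-test on unlogged signals gave 0 and 353. With the replicate number of the sample titles as a block in limma, 20 features passed with adjustment and 874 without. Whether that number pairs the arrays was not established. VCAM1 shRNA replicate 3 had the fewest detected features and VCAM1 shRNA replicate 1 the most.

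Il6, one of the 2 induced cytokines, gave signals of 150.9, 207.5 and 174.4 on control arrays 1 to 3. In the treated group the signals were 76.8, 116.7 and 76.4. Every VCAM1 shRNA array was thus below every control array. The means were 177.6 ± 28.4 and 89.9 ± 23.2 (SD, n = 3 each), and the geometric mean came to 50.04% of that of the controls. The log2 difference was -0.999, and the SD between arrays of a group, pooled over both groups, was 0.30 on the same scale.

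Csf3 gave 395.3, 299.6 and 321.6 on the control arrays. It gave 229.6, 168.5 and 149.6 on the VCAM1 shRNA arrays. Again the groups did not overlap. The means were 338.8 ± 50.1 and 182.6 ± 41.8 (SD, n = 3 each), a log2 difference of -0.91 with a pooled SD of 0.27. Il6 and Csf3 were the 2 of the 5 cytokines without overlap between the groups. Among all features tested, 2.04% lay wholly below the controls in this way, and since these 2 genes were chosen for low signals nothing is read from that comparison.

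**Figure D1:**
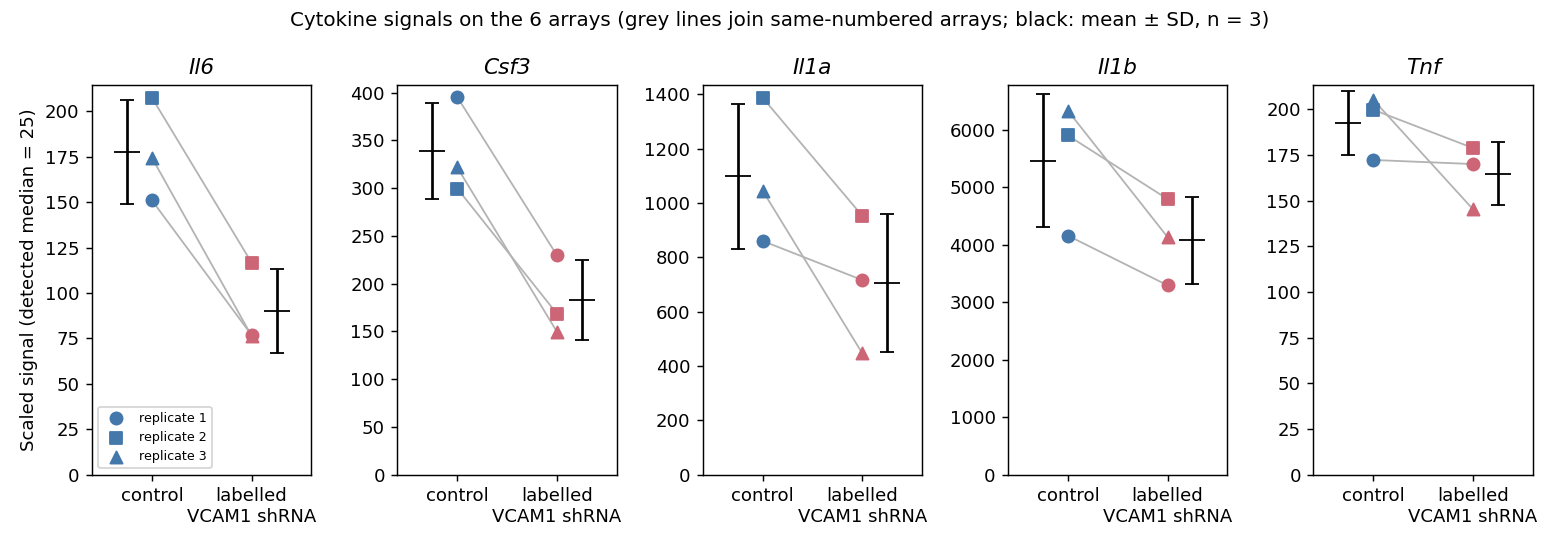
Scaled signal (array median of detected features 25, each axis from 0) of the 5 cytokines on the 3 control arrays and the 3 VCAM1 shRNA arrays; grey lines join arrays of the same number, and black bars are the mean ± SD. For Il6 and Csf3 the groups do not overlap, while for Il1a, Il1b and Tnf they do, although every line slopes downwards.

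By mean log2 difference the upstream cytokines were lower by smaller steps than Il6 and Csf3, which had been chosen as low. Between the arrays numbered 3, however, Il1a fell further than both (-1.23, against -1.19 for Il6 and -1.10 for Csf3). Il1a gave signals of 860.1, 1387 and 1045 on the control arrays and of 716.0, 952.4 and 446.6 on the VCAM1 shRNA arrays. The second treated array was above the first control array, so the groups overlapped. The means were 1097 ± 267 and 705.0 ± 253 (SD, n = 3 each). The log2 difference was -0.68 and the pooled SD 0.46, the widest spread of the 5 genes and wider than that of 71.5% of the features tested. Without VCAM1 shRNA replicate 3 the log2 difference was -0.38.

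Il1b, whose product is cut by caspase before it is active, gave 4160, 5904 and 6335 on the control arrays. On the VCAM1 shRNA arrays it gave 3295, 4797 and 4135. The groups overlapped, as the second treated array was above the first control array. The means were 5466 ± 1152 and 4076 ± 753 (SD, n = 3 each), a log2 difference of -0.42 with a pooled SD of 0.30. Without VCAM1 shRNA replicate 1 it was -0.27.

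Tnf was the most even of the 5. It gave 172.2, 199.7 and 205.1 on the control arrays and 169.9, 178.7 and 145.3 on the VCAM1 shRNA arrays. Treated arrays 1 and 3 lay below all controls, array 1 by a small margin, and treated array 2 was above control array 1. The means were 192.3 ± 17.7 and 164.6 ± 17.4 (SD, n = 3 each), a log2 difference of -0.23 with a pooled SD of 0.15, a spread smaller than that of all but 6.08% of the features tested. Without VCAM1 shRNA replicate 3 the log2 difference was -0.14.

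Between same-numbered arrays each of the 5 genes was lower in all 3 pairs, as were 7.04% of all features tested. For Il6 the log2 difference within pairs 1 to 3 was -0.97, -0.83 and -1.19. For Csf3 it was -0.78, -0.83 and -1.10. The mean difference between these 2 genes, -0.093, was within the spread between pairs (SD 0.096). Il1b gave -0.34, -0.30 and -0.62, and Il1a gave -0.26, -0.54 and -1.23. Tnf gave -0.019, -0.16 and -0.50.

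The third pair gave the largest difference for each gene, and the scaled signals of the features as a whole also shifted with the pair. Scaling fixes the median of detected features only, and the arrays differed in how many were detected. These were 15841, 15900 and 15723 on control arrays 1 to 3, and 17068, 16586 and 14701 on VCAM1 shRNA arrays 1 to 3. The part of these numbers in the shift was not tested. The median log2 difference over all features tested was 0.28 in pair 1, 0.18 in pair 2 and -0.27 in pair 3, and 17.5%, 24.4% and 83.6% of features were lower in pairs 1, 2 and 3. After subtraction of these medians, Tnf was lower by nearly the same step in each pair, with log2 differences of -0.30, -0.34 and -0.22. Il6 then gave -1.26, -1.01 and -0.92, and Csf3 gave -1.07, -1.01 and -0.83. Il1b gave -0.62, -0.48 and -0.34. For 4 of the genes pair 3 now held the smallest difference, whereas Il1a still had its largest there (-0.55, -0.73 and -0.95).

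**Figure D2:**
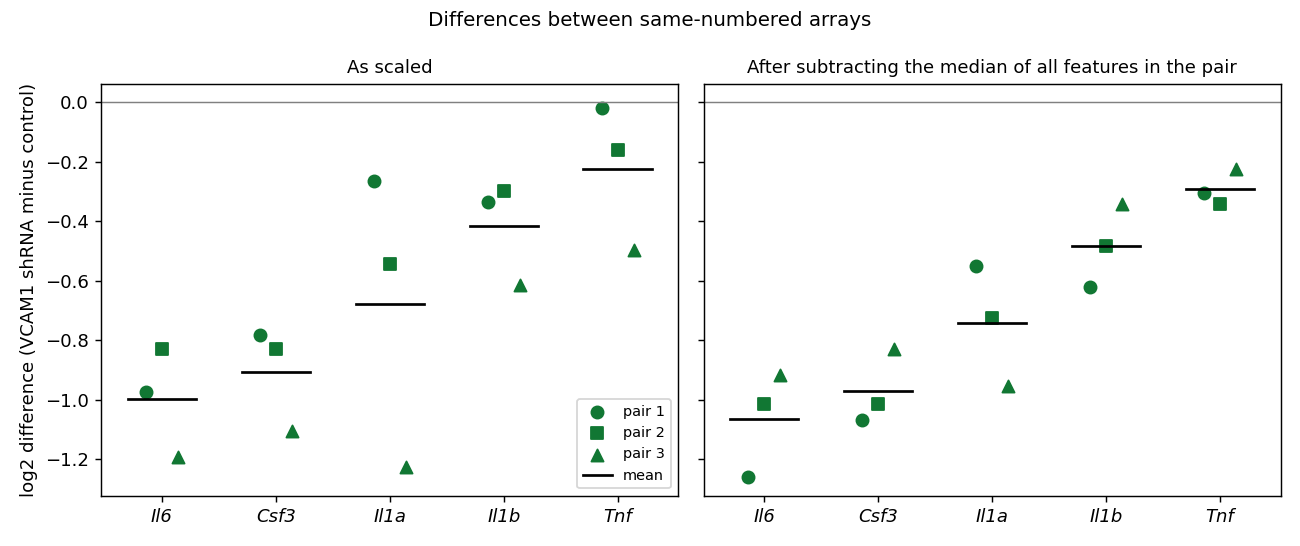
log2 difference of each cytokine (VCAM1 shRNA arrays minus control) in the 3 pairs of same-numbered arrays, as scaled (left) and after subtracting the median difference of all features in the pair (right); points are pairs and black lines are means. All values lie below 0, and the spread between pairs of Tnf narrows from an SD of 0.25 to 0.061 on the right.

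Subtracting the log2 difference of one cytokine from that of another removes any factor common to a whole array. For Il6 minus Il1b this gave -0.64, -0.53 and -0.58 in pairs 1 to 3 (mean -0.58, SD 0.054). For Csf3 minus Il1b the values were -0.45, -0.53 and -0.49 (mean -0.49, SD 0.042). Since Il6 and Csf3 were chosen as low on these arrays, this order is a description, and with normexp on the local background that of Csf3 and Il1b turned (0.66 and -0.015). Il6 minus Tnf gave -0.96, -0.67 and -0.69. Il1a held no fixed place, as Il6 minus Il1a was -0.71 and -0.29 in pairs 1 and 2 and 0.035 in pair 3. From the largest mean difference to the smallest the order was Il6, Csf3, Il1a, Il1b and Tnf, in which Il6 and Csf3, Csf3 and Il1a (Csf3 minus Il1a, mean -0.23, SD 0.32) and Il1a and Il1b did not differ beyond their spread (Il1b minus Il1a, mean 0.26, SD 0.34). Il1b minus Tnf was below 0 in each pair, at -0.32, -0.14 and -0.12.

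Set among all 16141 features, the log2 difference of Il6 was number 25 from the lowest and that of Csf3 number 35. Il1a was number 86, Il1b number 409 and Tnf number 1446. As low as Tnf or lower were 8.96% of the features. The median of all features was 0.064. These places describe the contrast by which the genes were chosen.

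**Figure D3:**
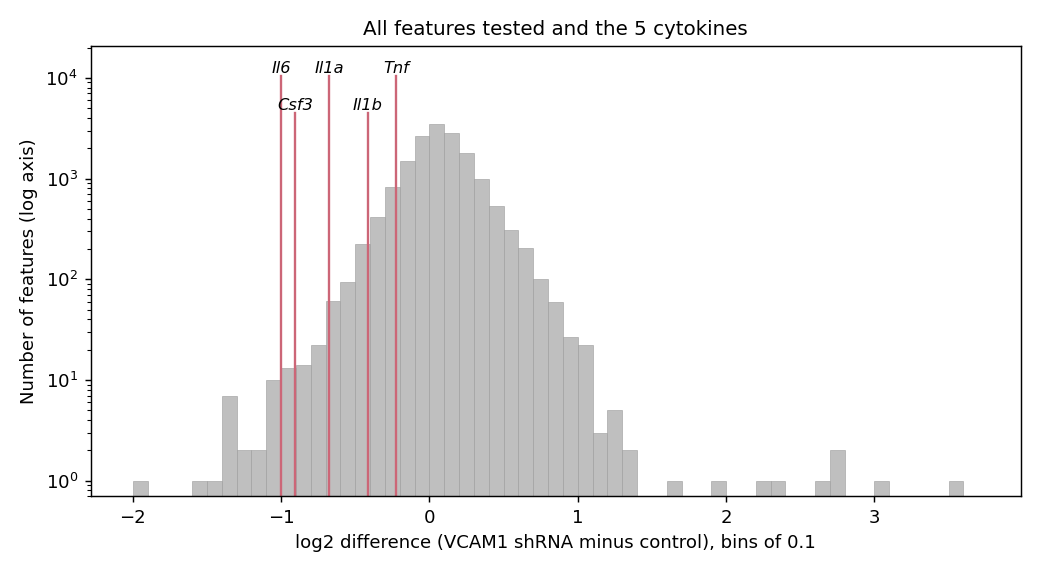
Histogram of the log2 difference (VCAM1 shRNA arrays minus control) of all 16141 features tested, in bins of 0.1 with the number of features on a log axis; red lines mark the 5 cytokines. Il6 and Csf3 lie in the sparse lower tail at -0.999 and -0.91, and Tnf at -0.23 lies in the shoulder of the main body.

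The genes also differed in which array number was brightest. Csf3 was highest on replicate 1 in both groups, as were 29.9% of the features tested. Il1b was lowest on replicate 1 in both groups, as were 7.02% of features. With quantile normalization Csf3 was still highest on replicate 1 in both groups (433.4 and 217.9) and Il1b lowest (4709 and 3173). Il6 and Il1a were highest on replicate 2 in both groups, and the share of all features with that order was not counted. The order of the arrays within a group was thus not shared by all 5 genes.

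By Pearson correlation of log2 signals over the 6 arrays, the 5 features most like each cytokine among the other 14200 detected on all arrays had r between 0.976 and 0.998. None of these 25 places was held by another of the 5 cytokines. The feature nearest to Il6 was ENSRNOG00000022298 (r = 0.998, log2 difference -0.82), and the one nearest to Csf3 was ENSRNOG00000039996 (r = 0.985, log2 difference -0.47), both without a gene name here. All points share the same 6 arrays and their scaling, and the difference between the groups enters each r. Within the set, Il1a and Tnf were most alike (r = 0.936, which placed Il1a at number 70 among the features ordered by likeness to Tnf), and Csf3 and Il1b least (r = 0.316). After subtraction of the group means, r was 0.88 for Il1a and Tnf and -0.80 for Csf3 and Il1b. For Il6 and Csf3 it was 0.72 before and -0.45 after that subtraction. On the subtracted values the features nearest to each cytokine had r between 0.996 and 0.9999, again without a cytokine of the set. Few free values remain from 6 arrays once group means are subtracted, and the nearest were picked from 14200 features. No likeness or opposition is therefore read from these r or from those within the set.

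The scanner also reports the brightness around each spot. This local background was not subtracted in the deposited normalized signals. The blank spots averaged 17.5 and 13.9 scanner units on control and VCAM1 shRNA replicate 1, and between 38.4 and 39.7 on the other arrays. Around the cytokine spots the local background amounted to between 15.7% (Tnf, VCAM1 shRNA replicate 1) and 100.7% (Csf3, control replicate 2) of the spot median. Its share over all features was not summarized here, so whether these spots stand out is not known. Around the Csf3 spot it was 520.8, 703.8 and 658.4 units on the control arrays and 291.0, 235.8 and 190.5 on the VCAM1 shRNA arrays, so that it was lower with the spot itself. Around the Il1a spot it was between 446.4 and 2282 units, although none of the 4 adjacent spots exceeded 111.7 on any array. For Csf3, Il1b and Tnf at least 1 of the 4 adjacent spots was brighter than the gene's own spot on all 6 arrays, and for Il6 on 4 of the 6.

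**Figure D4:**
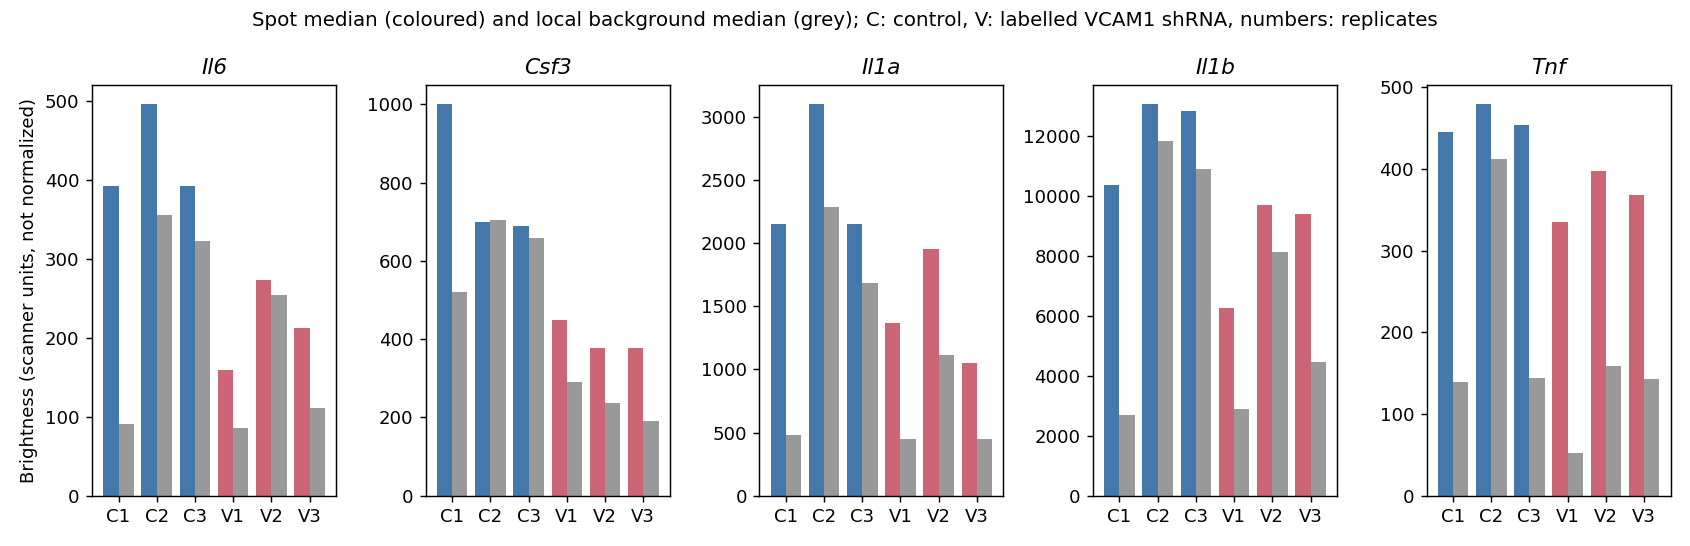
Spot median (coloured bars) and local background median (grey bars) of the 5 cytokines in scanner units without normalization, each axis from 0; C1 to C3 are the control arrays and V1 to V3 the VCAM1 shRNA arrays. For Csf3 the grey bar is 100.7% and 95.4% of the coloured one on control arrays 2 and 3 and between 50.4% and 64.9% of it on the other arrays.

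When this local background was used (normexp, then quantile normalization), the sign of Csf3 turned, with a log2 difference of 0.66 and pair values of -0.78, 1.93 and 0.83. Tnf came to 0.13 and Il1b to -0.015. Il1a stood at -0.25 with overlapping groups. Il6 stood at -0.89 with no overlap and with pair values of -0.89, -1.49 and -0.29. With quantile normalization of the blank-subtracted signals, by contrast, 4 of the 5 cytokines (all but Il1b) lay wholly below the controls, as did 4.96% of all features. The same 4 genes did so with scaling to the 75th percentile (2.52% of all features) and with normexp on the uncorrected signal (4.9%). All 5 did so without control replicate 1 (4.41% of features) and without VCAM1 shRNA replicate 2 (5.33%). This had to follow, since the only overlap of Il1a, Il1b and Tnf was that treated array above that control array. With any other array left out, only Il6 and Csf3 did so (between 2.19% and 8.86% of features). The part of the local background in the differences was not tested.

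**Figure D5:**
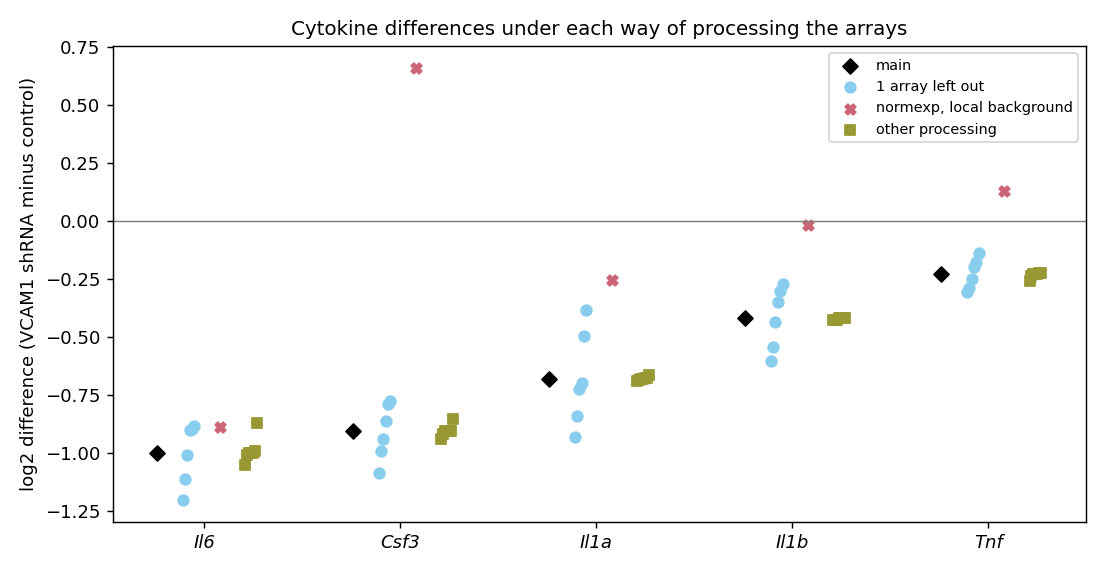
log2 difference of each cytokine (VCAM1 shRNA arrays minus control) as reported (black), with 1 array left out (blue), with normexp on the local background (red crosses) and under the other ways of processing (olive). Only the red crosses of Csf3 (0.66) and Tnf (0.13) lie above 0, and the blue points are widest for Il1a, from -0.93 to -0.38.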

How the data were processed

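RNA from rat oligodendrocyte precursor cells was amplified, labelled with Cy5 and hybridized to 6 one-colour oligo chips, grouped by the sample titles. The authors deposited, for each array, intensity values of the scanner (spot medians and local background medians, without subtraction or normalization), and a table of normalized intensity values on the linear scale, whose median on each array is 25.

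Here the signal was the spot median minus the mean of the 5808 blank spots, trimmed by 5% at both ends. Features more than 2 SD of the trimmed blanks above their mean, and free of scanner flags, counted as detected. Each array was multiplied so that its detected features had a median of 25, undetected features took the lowest detected value of their array, and log2 was taken. Against the deposited normalized values the largest deviation was 0.18%. The methods name global normalization for the arrays and Student's t-test for comparisons of a pair of groups, which was run as an alternative.

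Features detected on at least 3 arrays were compared with limma 3.58.1 in R 4.3.3 (lmFit, eBayes, Benjamini-Hochberg, threshold 0.05). Figures were drawn with matplotlib 3.10.9. For the 5 cytokines means, SD and pair differences are described and no p is given, since members, lists and alternatives were chosen with earlier results of these data known. Blocking on the replicate number was also tried. After removal of group means, arrays of the same number correlated over all features with r of 0.70, 0.63 and 0.51. Arrays of different numbers were not compared in this way, so this check cannot establish the pairing. The pairs rest on the numbers in the sample titles.

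Genes to be named were the 5 cytokines, pathway and marker genes with an unadjusted p below 0.05, and the 5 features most like each cytokine over the arrays. The reference gene table matched 0 of the 20174 identifiers, so the 8 pathway lists and 6 marker lists were not analysed here. The other alternatives were the 75th percentile in place of the median, quantile normalization, normexp (offset 50) with and without the local background, the deposited values, other rules for undetected signals and detection filters, log2 of the signal plus 1, the methods' t-test on unlogged signals, a trended robust eBayes, and 1 array left out at a time.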

Additional observations from a re-analysis of the deposited data

How the results depend on the processing

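Of 60 values of the 5 cytokines under alternatives that could move them, 57 kept their sign and stayed within 1 SD of the reported log2 difference. Those with 1 array left out could not fail this rule. Dropping 1 of 3 arrays moves a group mean by less than the pooled SD, and each difference was at least 1.39 pooled SD. The deposited values and log2 of the signal plus 1 could hardly move signals of this size. The count is therefore no measure of robustness. Another 10, from the replicate block and from leaving undetected signals missing, could not move by construction. The exceptions all came from normexp on the local background: 0.66 for Csf3, 0.13 for Tnf and -0.015 for Il1b. With 1 array left out, the log2 difference lay between -1.20 and -0.88 for Il6, between -1.08 and -0.77 for Csf3, between -0.93 and -0.38 for Il1a, between -0.60 and -0.27 for Il1b and between -0.30 and -0.14 for Tnf.

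The limma count at an adjusted p of 0.05 was 0 over all features, 20 with the replicate block and 3 with normexp on the uncorrected signal. The unadjusted count of 286 (98 lower, 188 higher) was 650 with quantile normalization (378 lower, 272 higher), 839 with normexp on the uncorrected signal (507 lower, 332 higher) and 874 with the replicate block (210 lower, 664 higher). Leaving out 1 array gave counts from 165 to 1354, and an adjusted count of 0 each time. The lowest came without control replicate 2 and the highest without VCAM1 shRNA replicate 3. Without VCAM1 shRNA replicate 2 it was 179. Features wholly below the controls numbered 330, against 791 after normexp on the uncorrected signal, 801 after quantile normalization, and between 352 and 1383 with 1 array left out, where fewer arrays have to be parted. For this count, normexp on the uncorrected signal and the 75th percentile were added after the data had been seen. For the other shifts the cause was not tested. The pathway lists had no alternatives because no identifier was matched to a symbol.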
